A study of Mus musculus with 6 samples.

Results

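The NeuroD genes, their E-protein partners and the Id genes that oppose them were followed in nuclear RNA of mouse cerebellar granule cells with and without a conditional Ezh1 knockout. The set held 10 genes, taken by symbol: Neurod1, Neurod2, Neurod4 and Neurod6, the E-protein genes Tcf3, Tcf4 and Tcf12, and Id1, Id2 and Id4. All 10 were found among the 24594 entries of the deposited count table, and 9 of them passed the filter on low counts that left 13115 genes for testing. Neurod4 did not pass. The set was chosen by values of the same comparison, since Neurod1 and Neurod2 were already known to differ between the genotypes in these libraries. The members' differences are therefore given as a description, with sizes and intervals. Where a call or adjusted p of a member is printed, it is not read as evidence.

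The study compared 3 WT libraries, of genotype Ezh1(wt/wt);Neurod1-Cre, with 3 cKO libraries, of genotype Ezh1(cKO/cKO);Neurod1-Cre, all from cerebella of mice aged 7 months. The nuclei were sorted on the neuronal nuclear antigen NeuN, which most cerebellar neurons other than granule cells carry weakly or not at all. The product of Ezh1 is one of the alternative enzymes of the Polycomb repressive complex PRC2, which places methyl groups on histone H3. Both genotypes carried Neurod1-Cre, named for one of the genes described here, and the labels give neither the way the Cre was placed in the genome nor its number of copies. Whether each library came from its own animal is not stated, so the intervals measure only the spread between these libraries, part of which may be technical.

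The libraries held 6340236 to 8284768 counts. Ezh1 lay between 71.0 and 83.3 CPM (counts scaled to a library of 1000000) in WT and between 51.0 and 55.6 CPM in cKO. Its log2 fold change was -0.53 (adjusted p = 0.00672 by edgeR), a call that was lost without WT replicate 3 or cKO replicate 1. These are counts for the whole gene, so they do not measure how far the allele was recombined. Of 11 tested genes of PRC2, Ezh1 was the one called. Xist was at 811 and 831 CPM in the 2 libraries numbered replicate 1 and at 1.39 to 4.46 CPM in the other 4, so replicate 1 of each genotype stood apart. All 18 listed granule cell markers passed the filter, and their sum was 6633 to 6806 CPM in WT and 6185 to 7409 CPM in cKO. The sums of markers of other cells overlapped between the genotypes in each list but that of unipolar brush cells. They were 902 to 1117 CPM in WT and 876 to 1056 CPM in cKO for 10 Purkinje cell markers, 228 to 270 and 220 to 243 CPM for 11 of inhibitory interneurons, and 598 to 647 and 546 to 667 CPM for 12 of astrocytes and Bergmann glia. For 4 markers of unipolar brush cells the sums were 7.80 to 18.6 CPM in WT and 19.6 to 24.5 CPM in cKO (2-sided exact permutation p = 0.1, the smallest that 3 against 3 allows), most of it from Eomes. For 12 oligodendrocyte markers the sums were 273 to 470 and 331 to 736 CPM, with the top value in cKO replicate 3. For 9 microglial markers they were 15.7 to 34.6 and 19.4 to 25.7 CPM, and for 13 of vessels, meninges and choroid plexus 24.5 to 29.1 and 18.8 to 30.5 CPM. No listed marker was at 0 in all libraries. In such bulk samples, fewer cells of a type and less RNA per cell cannot be told apart.

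NeuroD factors are activators of the basic helix-loop-helix (bHLH) class, which switch on and maintain genes of neuronal differentiation. They bind DNA as dimers with an E protein at a short palindrome-like site, the E-box, with the letters CANNTG. Id proteins have the helix-loop-helix but lack the basic region that contacts DNA, so an E protein held by an Id protein cannot bind. In the cerebellum, Neurod1 is needed for granule neurons to differentiate and survive, and it stays on in the adult cell.

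Neurod1 RNA in cKO was 2.16 times its WT level, Neurod2 RNA was 0.739 times its WT level, and the E-protein genes Tcf4 and Tcf12 lay within 15% of their WT level by their intervals. Id1, Id2 and Id4 were low in both genotypes, with intervals too wide to place them. Of the 9 members tested, 1 was called higher in cKO and 1 lower at an adjusted p below 0.05 of edgeR's quasi-likelihood test. Over all 13115 genes, 0.32% were called higher and 0.259% lower. Since the set was built around these calls, nothing is read from that count. The genotypes did not overlap for the same 2 members, 1 in each direction, against 7.88% of all tested genes with every cKO library above every WT library and 8.39% with every one below.

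**Figure D1:**
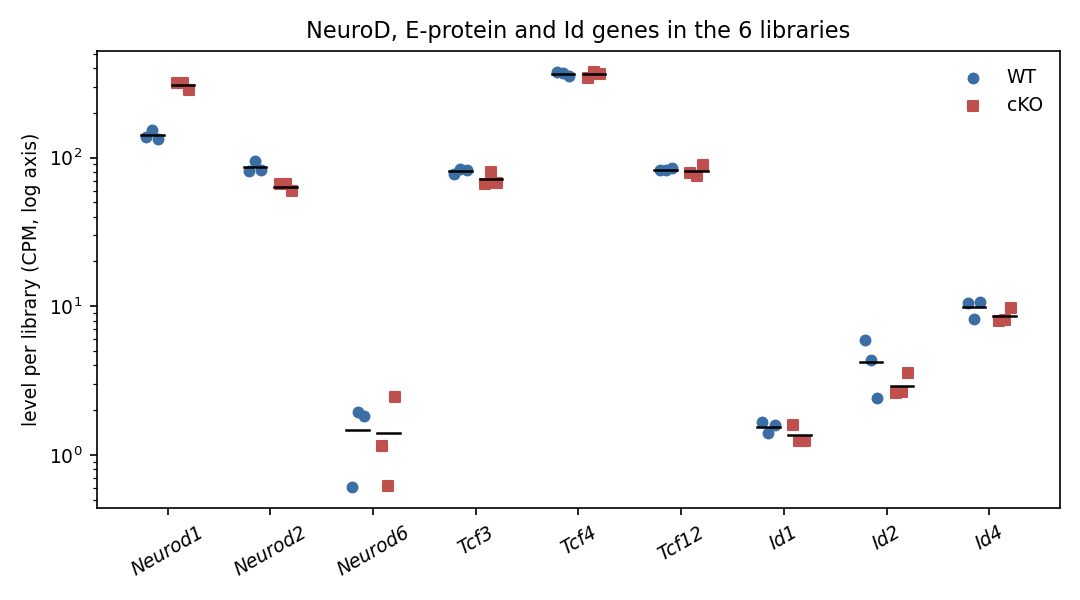
Level of each tested member in the 3 WT libraries (circles) and the 3 cKO libraries (squares), in CPM on a log axis, with a bar at each mean. Neurod1 is higher in every cKO library and Neurod2 lower in every one, while the groups overlap for the other 7 genes.

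Neurod1 (NCBI gene 18012; chromosome 2, 79452637 to 79456636, minus strand, GRCm38) was at 138, 154 and 134 CPM in WT replicates 1 to 3 and at 317, 318 and 287 CPM in cKO replicates 1 to 3. These values rest on 915, 1105 and 1106 counts against 2202, 2057 and 1862. The lowest cKO library was thus 1.86 times the highest WT library, and every one of the 9 ratios between a cKO and a WT library lay between 1.86 and 2.37. The means were 142 ± 10.4 and 307 ± 17.7 CPM (SD, n = 3), a ratio of 2.16, with a log2 fold change of 1.11 (SE 0.08, 95% interval 0.94 to 1.28). In WT, 911 of the tested genes had a higher mean CPM than Neurod1, and in cKO 307 had. The ratio was 2.29 between the replicate 1 libraries, which had high Xist, and 2.10 between the means of the others. Neurod1 kept its call in all 15 alternative analyses.

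Neurod2 (NCBI gene 18013; chromosome 11, 98325415 to 98329645, minus strand) encodes the relative of Neurod1 that is best known for the maturation of synapses in excitatory neurons. It was at 80.7, 95.4 and 82.9 CPM in WT and at 66.2, 66.1 and 59.3 CPM in cKO, from 534, 685 and 683 counts against 460, 428 and 385. All 3 cKO libraries lay below all 3 WT libraries, with the highest at 0.820 of the lowest WT library. The means were 86.3 ± 7.95 and 63.8 ± 3.98 CPM (SD, n = 3), and the log2 fold change was -0.44 (SE 0.10, 95% interval -0.63 to -0.24). The ratio was 0.820 between the replicate 1 libraries and 0.703 between the others. The direction held in each of 15 alternatives, but the call did not. It was lost without WT replicate 2 (log2 fold change -0.36), WT replicate 3 (-0.46), cKO replicate 1 (-0.46) or cKO replicate 3 (-0.38), and with replicates 2 and 3 alone (-0.51).

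**Figure D2:**
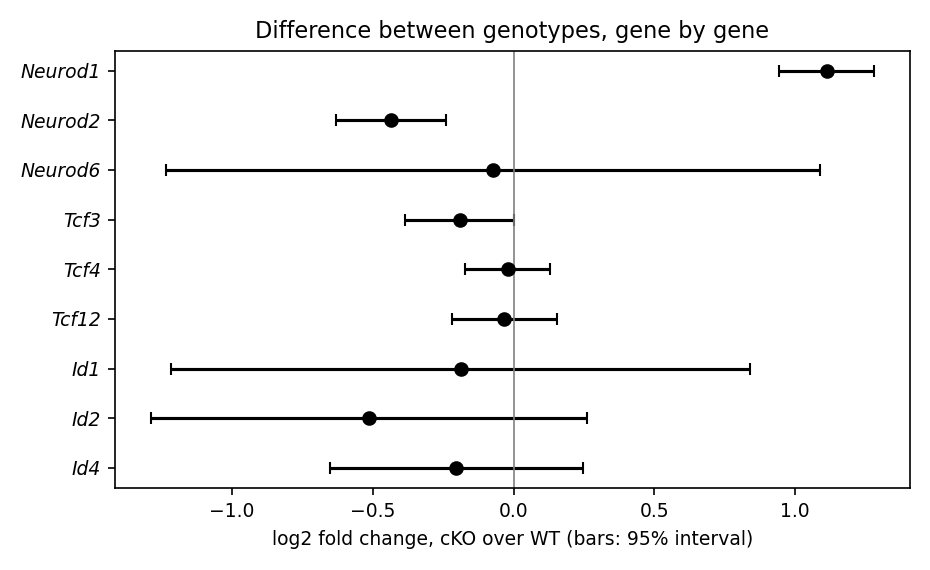
Log2 fold change of cKO over WT for each tested member (points) with its 95% interval from the fit over all genes (bars). The interval of Neurod1 runs from 0.94 to 1.28 and that of Neurod2 from -0.63 to -0.24, and those of the other 7 genes include 0.

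The stretches of 250 bases before the RefSeq start of these 2 genes are shown because the pair moved in opposite directions and because the E-box is the site that their own products bind. Both read 5′ to 3′ on the strand of the gene, GRCm38.p6, with every CANNTG match in capitals. The Neurod1 stretch is chr2:79456637-79456886 and the Neurod2 stretch is chr11:98329646-98329895.
Neurod1: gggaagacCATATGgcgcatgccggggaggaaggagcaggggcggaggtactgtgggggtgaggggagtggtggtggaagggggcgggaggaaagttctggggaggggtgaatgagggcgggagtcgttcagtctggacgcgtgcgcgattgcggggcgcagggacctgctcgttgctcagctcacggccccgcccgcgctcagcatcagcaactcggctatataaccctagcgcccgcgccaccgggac
Neurod2: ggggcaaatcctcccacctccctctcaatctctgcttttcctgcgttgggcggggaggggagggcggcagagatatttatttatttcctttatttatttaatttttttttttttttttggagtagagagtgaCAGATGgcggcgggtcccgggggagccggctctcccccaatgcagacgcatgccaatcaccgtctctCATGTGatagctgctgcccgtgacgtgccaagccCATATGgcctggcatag
The Neurod1 stretch held 1 E-box, CATATG, whose first base lies 242 bases before the start. The Neurod2 stretch held 3, CAGATG at 118, CATGTG at 51 and CATATG at 17 bases before the start. Among the 32851 stretches of that length in the RefSeq table, 66.2% held at least 1 CANNTG and 12.2% held 3 or more. CAGATG or its reverse complement CATCTG was in 14.4% of them, and it is absent from the Neurod1 stretch. The palindrome CAGCTG, which both strands share and which 13.0% of stretches held, was in neither. The Neurod1 stretch had 22 CpG dinucleotides, more than 85.2% of all stretches, and the Neurod2 stretch had 11, more than 64.4%. A match of letters is not a binding site, and these windows do not cover distal elements.

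Since both genes were counted in the same library, their ratio does not depend on how libraries were scaled. There were 1.71, 1.61 and 1.62 Neurod1 counts for each Neurod2 count in WT replicates 1 to 3, and 4.79, 4.81 and 4.84 in cKO replicates 1 to 3. The means were 1.65 ± 0.06 and 4.81 ± 0.02 (SD, n = 3), a 2.92-fold difference, and each genotype held to its own value closely. Neurod1 made up 63.0%, 61.3% and 61.3% of all counts on the 4 NeuroD genes in WT and 82.4%, 82.6% and 82.3% in cKO. Exact 95% binomial (Clopper-Pearson) intervals of single libraries reached 2.52 percentage points to either side in WT and 1.59 points in cKO, so the 3 libraries of a genotype differed by less than the counting error of one. These intervals cover counting error only. As Neurod1 is the more abundant gene, the NeuroD RNA in sum went with it, at 220, 251 and 219 CPM in WT and 384, 384 and 348 CPM in cKO.

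The other relatives were nearly silent. Neurod6, a marker of excitatory neurons of the forebrain, was counted 4, 14 and 15 times in WT and 8, 4 and 16 times in cKO, at 0.60 to 1.95 and 0.62 to 2.46 CPM. The genotypes overlapped over nearly their whole range, and the 95% interval of -1.23 to 1.09 on the log2 scale leaves wide differences possible in both directions. Neurod4, which acts early and briefly in neuronal precursors, had 1 count in cKO replicate 1 and 0 in the other 5 libraries. A count of 0 allows up to 3 counts, or 0.364 to 0.463 CPM in these libraries. No shift of expression to Neurod4 or Neurod6 was detectable at this depth.

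E proteins are the common partners of tissue-specific bHLH factors and are made in most cell types. Tcf4 (NCBI gene 21413), also known as E2-2 and not to be taken for the Wnt effector Tcf7l2, was the member with the most counts in both genotypes. It lay at 379, 370 and 354 CPM in WT and at 344, 377 and 366 CPM in cKO. The groups overlapped, and the log2 fold change was -0.02 with a 95% interval of -0.17 to 0.13, that is, from 11.2% lower to 9.33% higher. With scaling by library size alone its sign turned (0.01). Tcf12, also known as HEB, was at 82.5, 82.1 and 84.7 CPM in WT and at 78.8, 75.2 and 89.7 CPM in cKO. The cKO libraries fell on both sides of the WT libraries, and the log2 fold change was -0.03 (-0.22 to 0.15).

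Tcf3 encodes E12 and E47, the splice forms for which E proteins were named. It was at 78.0, 83.6 and 82.3 CPM in WT and at 66.9, 79.4 and 67.4 CPM in cKO. Replicates 1 and 3 of cKO lay below every WT library, while cKO replicate 2 lay above WT replicate 1. The log2 fold change was -0.19 with a 95% interval of -0.38 to 0.00, negative in each of the 15 alternatives and called in none. The 3 E-protein genes in sum held 540, 536 and 521 CPM in WT and 490, 532 and 523 CPM in cKO, and Tcf4 made up 67.9% to 70.3% of their counts in WT and 69.9% to 70.9% in cKO.

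With the E proteins close to level and Neurod1 up, the ratio between the partners' RNA had to differ. It restates the Neurod1 difference by which the set was chosen and is no separate result. Per count on a NeuroD gene there were 2.46, 2.13 and 2.38 E-protein counts in WT and 1.27, 1.38 and 1.5 in cKO, with no overlap (2.32 ± 0.17 and 1.39 ± 0.11, SD, n = 3). Against Tcf4 alone, Neurod1 stood at 0.365 to 0.416 in WT and at 0.784 to 0.921 in cKO. These are ratios of RNA counts between genes of different length, so they compare libraries and do not give the stoichiometry of the proteins.

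**Figure D3:**
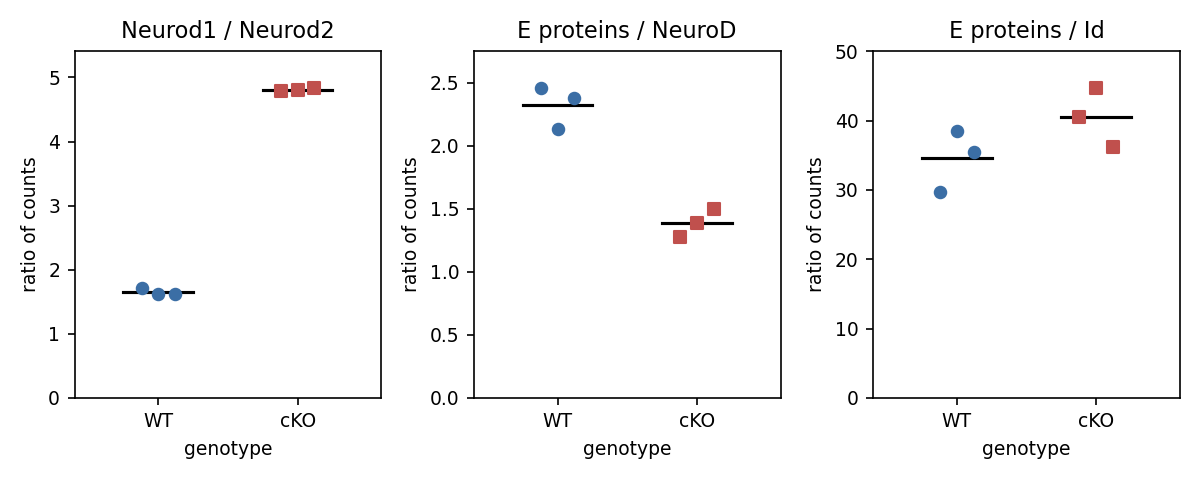
Ratios of counts within a library for Neurod1 to Neurod2, the 3 E-protein genes to the 4 NeuroD genes, and the 3 E-protein genes to the 3 Id genes, each point 1 library and each bar the mean of 3. The means of the first are 1.65 in WT and 4.81 in cKO and those of the second 2.32 and 1.39, both with no overlap. Both of these hold Neurod1, by whose difference the set was chosen. The third overlaps between genotypes.

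Id genes are immediate targets of bone morphogenetic protein (BMP) signalling and are typical of dividing precursors, glia and vessels. Id4 was the highest, at 10.6, 8.22 and 10.7 CPM in WT and at 7.91, 8.03 and 9.70 CPM in cKO. Its groups overlapped, with a log2 fold change of -0.20 (-0.65 to 0.25). Id4 shares a stretch at its start with the antisense long noncoding RNA A330033J07Rik, which had 88 counts in all libraries together against 387 for Id4, and reads of that stretch cannot be told apart without strand. Id2 was at 5.89, 4.32 and 2.43 CPM in WT and at 2.59, 2.63 and 3.54 CPM in cKO. The spread within WT, from 39 counts in replicate 1 to 20 in replicate 3, exceeded the distance between the means, and the log2 fold change of -0.51 had an interval of -1.29 to 0.26. It was -0.20 without WT replicate 1 and -0.80 without WT replicate 3. The ratio of cKO to WT for Id2 was 0.439 between the replicate 1 libraries and 0.914 between the others. Id1 had 8 to 13 counts per library, at 1.39 to 1.66 CPM in WT and 1.23 to 1.58 CPM in cKO (-0.19, -1.21 to 0.84).

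In sum, the 3 Id genes held 18.1, 13.9 and 14.7 CPM in WT and 12.1, 11.9 and 14.5 CPM in cKO, and WT replicate 2 fell below cKO replicate 3. E-protein counts outnumbered the joint counts on Id1, Id2 and Id4 29.8 to 38.5 times in WT and 36.1 to 44.7 times in cKO. The sums of glial and vascular markers given above overlapped between the genotypes in the same way, and their part in the Id values was not tested.

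Levels were also divided by the joined length of all exons annotated for a gene (GENCODE vM21). That length was 27382 bases for Tcf4 and 15529 for Tcf12, against 2729 for Neurod1. A single transcript can be shorter, so the order between genes depends on the length used. By this measure Neurod1 was the highest member in both genotypes, at 52.1 ± 3.81 CPM per kb in WT and 112.5 ± 6.49 in cKO (SD, n = 3). Next came Neurod2 at 27.5 ± 2.53 in WT and 20.3 ± 1.27 in cKO, Tcf3 at 20.1 ± 0.73 and 17.6 ± 1.75, Tcf4 at 13.4 ± 0.47 and 13.2 ± 0.61, and Tcf12 at 5.35 ± 0.09 and 5.23 ± 0.49 CPM per kb. The order of the 10 was the same in both genotypes. In WT these 5 neighbours did not overlap, while in cKO the libraries of Neurod2 (18.9 to 21.1 CPM per kb) and Tcf3 (16.6 to 19.7) did. Id4 (2.55 ± 0.36 in WT), Id2 (1.73 ± 0.71) and Id1 (1.33 ± 0.12) followed, and in WT Id2 overlapped both of the others. In cKO Id2 (1.06 to 1.45) overlapped Id1 (1.06 to 1.36), and both overlapped Neurod6 (0.287 to 1.15). Neurod6 stood at 0.678 ± 0.35 and Neurod4 at 0 CPM per kb in WT. With the whole gene span as the length, Tcf4 and Tcf12, which have very long introns, moved from rank 4 and 5 to rank 7 and 9.

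Genes beside Neurod1 and Neurod2 are not members of the set, but they were read in the same comparison, with earlier results known. Within 500 kb of Neurod1, 3 other genes were tested and none was called by edgeR, with 1 at an unadjusted p below 0.05, which DESeq2 and limma-voom did not call either. This was Cerkl, which encodes a ceramide kinase-like protein of the retina and lies 23.6 kb away. It was at 38.8, 47.6 and 47.9 CPM in WT and at 52.8, 61.6 and 53.4 CPM in cKO, higher in every cKO library. Its log2 fold change of 0.32 (SE 0.11, adjusted p = 0.236 by edgeR) was well short of that of Neurod1. RefSeq ends Cerkl before Neurod1, but GENCODE has it run across Neurod1 on the same strand (79330543 to 79456785), and also has an antisense RNA, Gm26755, that overlaps Neurod1. The rows of the count table carry NCBI gene identifiers, as RefSeq does, but the annotation used is not stated. Whether reads of these genes were kept apart was not tested. The integrin gene Itga4 (log2 fold change -0.27, adjusted p = 0.510 by edgeR) and Itprid2 (-0.03, adjusted p = 0.934) were the other 2.

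**Figure D4:**
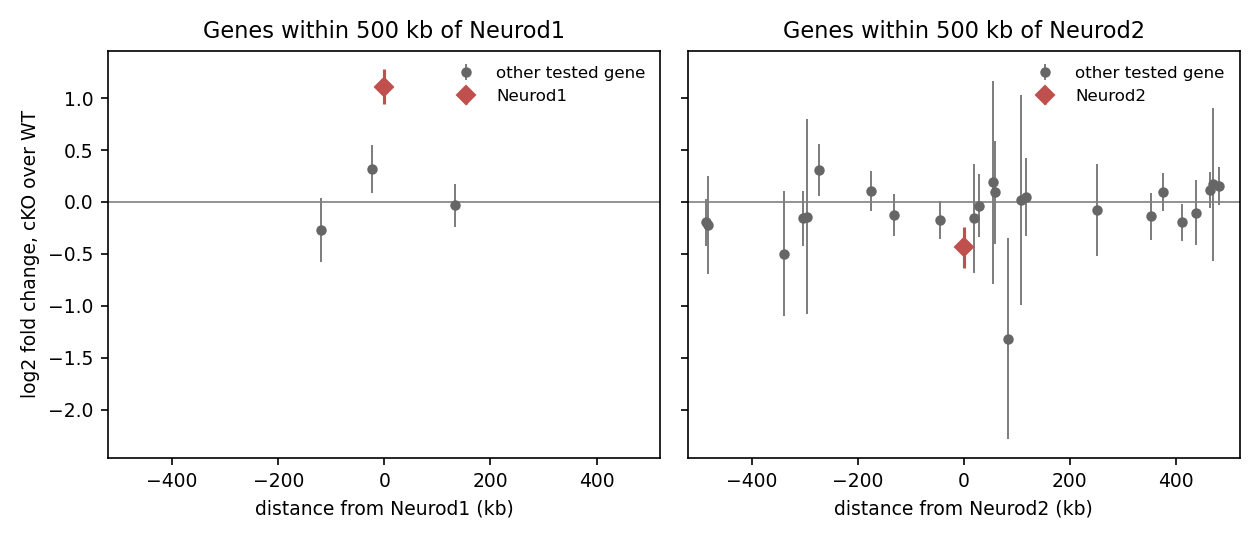
Log2 fold change of cKO over WT (points, with 95% intervals as bars) against the distance in kb from Neurod1 (left) and from Neurod2 (right), with the named gene as a diamond at 0. Neurod1 stands at 1.11 above its 3 neighbours, which lie between -0.27 and 0.32. Neurod2 at -0.44 lies near the low end of the 24 genes around it. Erbb2 (-1.32) and Plxdc1 (-0.50) lie below it and the others above.

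Within 500 kb of Neurod2, 24 other genes were tested. Their median log2 fold change was -0.09, and 10 of them were above 0. EdgeR and limma-voom called 0, and in edgeR 3 had an unadjusted p below 0.05. DESeq2 called 0 too, with 13 of the 24 left without an adjusted value. The pair with the lowest p were Erbb2, a receptor tyrosine kinase gene at 2.09 to 4.01 CPM in WT and 0.86 to 1.39 CPM in cKO (-1.32, SE 0.47, adjusted p = 0.233 by edgeR), and Stac2, at 29.6 to 36.4 and 40.3 to 43.4 CPM (0.31, SE 0.12, adjusted p = 0.295). Neurod2 lies 2.86 Mb from Ezh1 on chromosome 11. Of 55 tested genes between them, 1 (1.82%) was called higher and 3 (5.45%) lower, against 0.32% and 0.259% over all genes, and their median log2 fold change was -0.04. The 3 lower ones lay 0.391 to 29.3 kb from Ezh1, at the far end from Neurod2. They were Cntnap1, at 337 ± 17.2 CPM in WT and 250 ± 20.7 CPM in cKO (SD, n = 3; -0.43, adjusted p = 0.00672 by edgeR), Plekhh3 (-0.44, adjusted p = 0.0135) and Tubg2 (-0.81, adjusted p = 0.0339). The higher one, Rapgefl1, starts 507 kb from Neurod2, just past the window, at 50.2, 66.0 and 58.1 CPM in WT and 143, 158 and 119 CPM in cKO. These 4 were named after their values were seen.

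The genes whose level followed that of Neurod1 most closely over the 6 libraries were Kcnrg (Pearson r of log2 CPM 0.988), the same Rapgefl1 (0.987) and Mirt1 (0.985). Kcnrg went from 10.9 ± 0.18 to 15.0 ± 0.46 CPM and Mirt1 from 28.6 ± 1.26 to 35.5 ± 0.23 CPM (SD, n = 3), so neither differed by as much. Closest to Neurod2 were Tmem191c (0.999), Anxa6 (0.996) and Ccdc124 (0.991). Anxa6, an annexin gene, went from 69.1 ± 3.99 to 57.5 ± 1.52 CPM, Tmem191c from 37.0 ± 2.61 to 30.0 ± 1.32 CPM and Ccdc124 from 18.4 ± 1.47 to 14.9 ± 0.94 CPM. All 6 libraries share their scaling in such a correlation, and it holds the difference between genotypes. The genes were picked for the highest r among tested genes with a mean of 10 CPM or more, so a high r is built in. Of these 6 genes edgeR called Rapgefl1 alone.

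Genes that act around the NeuroD factors were read from lists made by family and pathway. In each list described from here to the mature granule cell markers, limma-voom also called 0 genes. DESeq2 called 0 as well, but gave no adjusted p to 97 of the 167 genes tested in them. With no filter on low counts, edgeR called Mesp2, Arntl2, Mnt and Jag2 from these lists, and with 1 library left out it called Arntl2, Mnt or Jag2 in 3 of 6 fits. Of 40 other bHLH activators of the NeuroD kind, 9 passed the filter and edgeR called 0, with 0 at an unadjusted p below 0.05 (median log2 fold change 0.09, 7 positive). Lyl1 was at 0.38 (adjusted p = 0.506 by edgeR) and Bhlha15 at 0.29 (adjusted p = 0.690). Many genes of the Hes, Hey and related families, though not all, hold back bHLH activators. Of 12 genes of these families, 7 were tested and 0 called, with 1 at an unadjusted p below 0.05 (median -0.08). These were led by Bhlhe40 (0.38, adjusted p = 0.416 by edgeR) and Hes6 (-0.26, adjusted p = 0.697). For comparison, the median over all tested genes was -0.01, with 6400 positive and 6715 negative and 1555 at an unadjusted p below 0.05.

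Of 37 bHLH factors of the Myc, USF, MiT, SREBP and PAS families, which dimerise among themselves, 30 were tested and 0 called by edgeR, with 4 at an unadjusted p below 0.05 (median 0.08). The clock gene relative Arntl2 was at 3.93, 4.18 and 3.52 CPM in WT and at 8.06, 6.33 and 9.23 CPM in cKO (1.02, SE 0.28, adjusted p = 0.0881 by edgeR). Mnt, which encodes an antagonist of Myc, was at 38.7, 49.7 and 48.8 CPM in WT and at 34.4, 30.6 and 34.3 CPM in cKO (-0.47, SE 0.13, adjusted p = 0.0881). Neither overlapped between the genotypes. Each was short of the threshold here but was called with no filter on low counts (adjusted p = 0.0454 and 0.0246 by edgeR), Arntl2 also without cKO replicate 2 (0.0496) and Mnt also without WT replicate 1 (0.0155).

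Of 25 cofactors that bind E proteins or bHLH complexes, such as the acetyltransferases Ep300 and Crebbp and the Runx1t1 corepressor family, 22 were tested and 0 called by edgeR, with 3 at an unadjusted p below 0.05 (median 0.04). The coactivator gene Ncoa2 was at 106 ± 2.09 CPM in WT and 124 ± 4.41 CPM in cKO (0.22, adjusted p = 0.241 by edgeR). Crebbp was at 244 ± 12.2 and 277 ± 8.19 CPM (SD, n = 3; 0.18, adjusted p = 0.328 by edgeR). Upstream of the Id genes, 33 of 49 BMP pathway genes were tested and 0 called, with 1 at an unadjusted p below 0.05 (median 0.12, 23 positive). The BMP antagonist gene Chrd was at 117 ± 11.1 and 98.2 ± 10.9 CPM (-0.25, adjusted p = 0.244 by edgeR), and the receptor gene Acvr2a was at 0.31 on the log2 scale (adjusted p = 0.437). Of 30 Notch pathway genes, 26 were tested and 0 called, with 3 at an unadjusted p below 0.05 (median 0.05). The ligand gene Jag2 was at 25.5 ± 2.61 and 35.8 ± 6.21 CPM (0.49, adjusted p = 0.113 by edgeR, and 0.0488 without cKO replicate 3) and the coactivator gene Maml3 was at 0.28 on the log2 scale (adjusted p = 0.340). Of 5 genes of beta-catenin and the TCF/LEF family, 4 were tested and 0 called by edgeR, with 0 at an unadjusted p below 0.05. Ctnnb1 was at 0.22 (adjusted p = 0.498 by edgeR) and Tcf7l1 at -0.53 (adjusted p = 0.652).

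**Figure D5:**
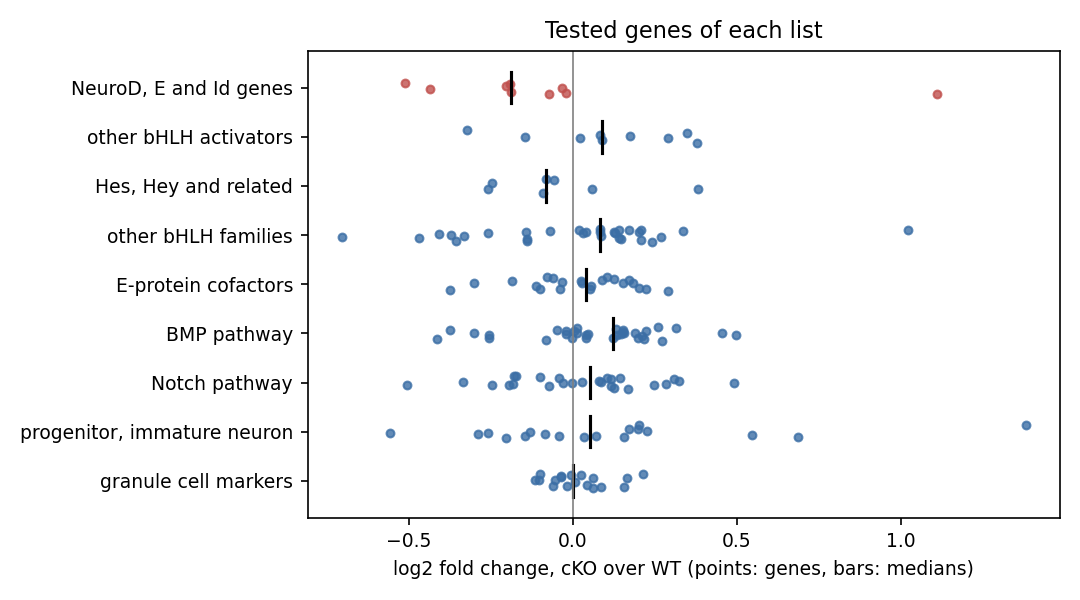
Log2 fold change of cKO over WT for each tested gene of the NeuroD, E-protein and Id set (top row) and of 8 related lists (points), with the median of each as a bar. Neurod1 at 1.11 stands apart in the top row, and the medians of the 8 lists lie between -0.08 and 0.12.

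Genes of the stages that Neurod1 guides were looked at in the same fit. From a list of 22 genes typical of granule cell progenitors or of young neurons, 18 were tested and 0 called by edgeR, with 3 at an unadjusted p below 0.05 (median 0.05, 10 positive). The hedgehog effector gene Gli1 was at -0.56 (adjusted p = 0.275 by edgeR). Insm1, which encodes a zinc finger factor of newborn neurons, was at 0.76, 0.42 and 0.97 CPM in WT and at 1.73, 1.70 and 2.31 CPM in cKO (1.38, SE 0.55, adjusted p = 0.297 by edgeR), separated but near the floor of detection. Of 18 markers of mature granule cells other than the members, 0 were called and 1 had an unadjusted p below 0.05, and their log2 fold changes lay between -0.12 and 0.21. Etv1 was at 0.21 (adjusted p = 0.401 by edgeR) and Zic1 at -0.12 (adjusted p = 0.572).

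Among markers of other cells, 0 of 9 tested for Purkinje cells, 11 for inhibitory interneurons, 1 for unipolar brush cells, 12 for astrocytes and Bergmann glia, 12 for oligodendrocytes, 2 for microglia and 5 for vessels and meninges were called by edgeR, with 4 in all at an unadjusted p below 0.05 (Gad2, Kit, Slc1a2 and Eomes). Limma-voom called Eomes alone. DESeq2 called 0 but gave no adjusted p to 39 of these 52 genes, Eomes among them. With no filter on low counts edgeR called Eomes and Gfap. Eomes, the defining factor of unipolar brush cells, was at 15.7, 6.13 and 8.98 CPM in WT and at 21.6, 18.7 and 21.1 CPM in cKO (1.00, SE 0.25, adjusted p = 0.0868 by edgeR). Every cKO library lay above every WT library. Besides limma-voom (adjusted p = 0.0240), 4 other alternatives called it, among them the fit without WT replicate 1 (1.43) and that on replicates 2 and 3 alone (1.39). Eomes was the one tested marker of that cell described here, and the part of unipolar brush cells in the Neurod1 difference was not tested. Gad2 (0.54, adjusted p = 0.329 by edgeR), Kit (-0.28, 0.409), Foxp2 (0.72, 0.462), Slc1a6 (-0.30, 0.577), Slc1a2 (0.37, 0.275) and S100b (-0.53, 0.446) had the smallest p of the interneuron, Purkinje and astrocyte lists. All 12 oligodendrocyte markers were above 0 (median 0.31), with their highest sum in cKO replicate 3. Those of smallest p in the oligodendrocyte, microglial and vascular lists were Cldn11 (0.68, 0.557), Cnp (0.31, 0.645), P2ry12 (0.32, 0.685), Csf1r (0.03, 0.979), Col1a2 (-0.41, 0.669) and Pdgfrb (-0.48, 0.670). Single libraries carried some of these values: without cKO replicate 3, Cldn11 was at 0.01 and Cnp at -0.03, and without cKO replicate 1, Foxp2 was at 0.28.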

How the data were processed

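The authors deposited whole-number counts per gene for 6 nuclear RNA libraries, not normalized. Per the submitters' processing notes, Subread and the mm10 genome were used. Neither these nor the labels give the version, the annotation, the use of strand or the handling of reads with several matches. NCBI gene identifiers were matched to RefSeq GRCm38.p6 (24570 of 24594). Counts were fitted in R 4.3.3 with edgeR 4.0.16 across all genes that filterByExpr kept (13115), with TMM factors of 0.982 to 1.02, robust quasi-likelihood fits, genotype as the only term, 2-sided tests and Benjamini-Hochberg adjustment over all tested genes. CPM use the library total times its TMM factor. The code was tested on simulated data. Members and gene lists were chosen with earlier results of these data known. Some listed cell markers are not reported here and enter no list count or sum. From each list the text names called genes, up to 4, or else the 2 of smallest p. Similar patterns needed a mean of 10 CPM or more, log2 CPM with 0.1 added, and passed over predicted gene models. Alternatives changed the scaling, the filter, the tool (DESeq2 1.42.0, limma-voom with limma 3.58.1), the libraries used and a replicate block.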

Additional observations from a re-analysis of the deposited data

How the results depend on the processing

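The alternatives draw on the same 6 libraries, in which the set was chosen. For the members they show how values depend on the processing and add no evidence. Neurod1 kept its direction and its call in all 15 alternatives, with log2 fold changes of 1.07 to 1.17. Neurod2 kept its direction in all 15 and its call in 10. Its log2 fold change ran from -0.4802 to -0.3573 with 1 library left out and was -0.507 (adjusted p = 0.0707 by edgeR) with replicates 2 and 3 alone. The number of members called was 1 to 2 with 1 library left out and 1 with replicates 2 and 3 alone. Neurod1 held 82.79% of the counts on Neurod1 and Neurod2 alone in cKO. Over all genes, 69 were called higher with scaling by library size alone, 146 higher and 131 lower with no filter on low counts, and 23 higher and 20 lower with replicates 2 and 3 alone, and DESeq2 called 61 higher and 56 lower. With 1 library left out there were 10 to 116 higher and 3 to 133 lower, the most without WT replicate 1 and the fewest without WT replicate 3 (for genes called higher, as few without cKO replicate 1). The cause was not tested.

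Signs turned for some genes that edgeR did not call. Tcf4 was at 0.01165 with library size alone and 0.03838 with replicates 2 and 3 alone, where Ppp1r1b was at 0.1545. With 1 library left out, the log2 fold change ran from -0.718 to 0.2767 for Neurod6, -0.05071 to 0.01581 for Tcf4, -0.1071 to 0.01992 for Tcf12, -0.02871 to 0.5154 for Cnp, -0.1547 to 0.2902 for Csf1r, -0.1585 to 0.04155 for Itprid2 and -0.3848 to 0.01493 for Ppp1r1b. The scaling that moved the median of all genes most, by 0.03, was library size alone.

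A fit with the replicate number as a block called 49 genes higher and 41 lower and gave 1.11 for Neurod1 and -0.43 for Neurod2, both called. It also called Eomes. Over genes, deviations from the group means correlated by 0.15, 0.01 and -0.04 between libraries of the same number. Between libraries of different numbers the values ran from -0.10 to 0.11. The numbers were not taken as pairs on this basis. The 0.15 was that of the replicate 1 libraries, both of which had high Xist. The main fit had no term for replicate or for Xist. Counts of 61 or fewer over all libraries limit Neurod6 and Id1.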
